A study of Homo sapiens with 6 samples.

Results

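The 9 genes described here encode gamma-secretase subunits and the proteases that cut its substrates first. They are the subunits PSEN2, NCSTN, APH1A, APH1B and PSENEN, the alpha-secretases ADAM10 and ADAM17, and the beta-secretases BACE1 and BACE2. They were taken by name, as every probe set that the array's annotation assigns to 1 of them: 24 of the 54674 probe sets on the array. Each of the 24 was assigned to 1 gene alone. The measurements came from LS174T, an established line from a human colon adenocarcinoma. Cells were treated for 48 h with CompE at 250 nM (3 cultures) or with its vehicle DMSO (3 cultures), and each culture was measured on its own Affymetrix Human U133 Plus 2.0 array. CompE is a common name for Compound E, a small-molecule inhibitor of gamma-secretase, and the labels give only the short name. Every result concerns transcript levels in 1 cell line at 1 dose and 1 time, and a bulk measurement cannot tell fewer cells that express a gene from less RNA per cell.

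Gamma-secretase is a protease complex that cuts membrane proteins inside the lipid bilayer. A presenilin carries the catalytic site, nicastrin guards access of substrates, an APH1 protein holds the complex together during assembly, and the PSENEN product PEN-2 completes the maturation of presenilin. The complex acts on stubs that remain after another protease, a sheddase, has released the extracellular part of the substrate. For Notch receptors, ADAM10 is the main sheddase after ligand binding, and gamma-secretase then frees the intracellular domain, which joins the DNA-binding protein RBPJ to switch on genes such as HES1. In the intestinal epithelium this pathway keeps progenitors from becoming secretory cells. The question asked of the 9 genes was whether their transcripts differed when the enzyme was inhibited.

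None of the 9 genes rose or fell in CompE-treated cells, by limma's moderated test with Benjamini-Hochberg adjustment over all 14308 genes tested and a threshold of 0.05. On the same threshold 4.56% of all genes rose and 2.57% fell. In this fit no member reached even an unadjusted p under 0.05, though 1 or 2 did under some other settings given below. Of all 14308 genes, 2145 were under that p and higher in CompE cells, and 1366 were under it and lower. The differences between CompE and DMSO, in log2 intensity of the brightest probe set of each gene, ran from -0.11 for PSENEN to 0.19 for NCSTN. For the 8 members above a background intensity of 45.7 in both groups, taken from the array's Bacillus controls, the median was 0.02, against 0.02 over the 11465 genes above it. The median size of a difference was 0.10 in these 8, against 0.11. Among all 14308 genes tested, which include those not above background, 34.2% differed by more than the member that differed most. In 3 members (NCSTN, APH1A and ADAM10) every CompE array lay above every DMSO array, as it did for 19.1% of all genes, and in 0 members every CompE array lay below, as it did for 13% of all genes.

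The inhibitor's effect on known targets was visible on the same arrays. HES1, a repressor that Notch switches on directly, had intensities of 307, 306 and 256 in CompE cells, against 804, 872 and 756 in DMSO cells. It fell by 1.49 on the log2 scale (SE 0.10, limma adjusted p = 0.00198). OLFM4, a stem cell marker of the intestine that depends on Notch, fell by 2.60 (SE 0.07, limma adjusted p = 0.000253). Both genes differed many times more than any member.

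**Figure D1:**
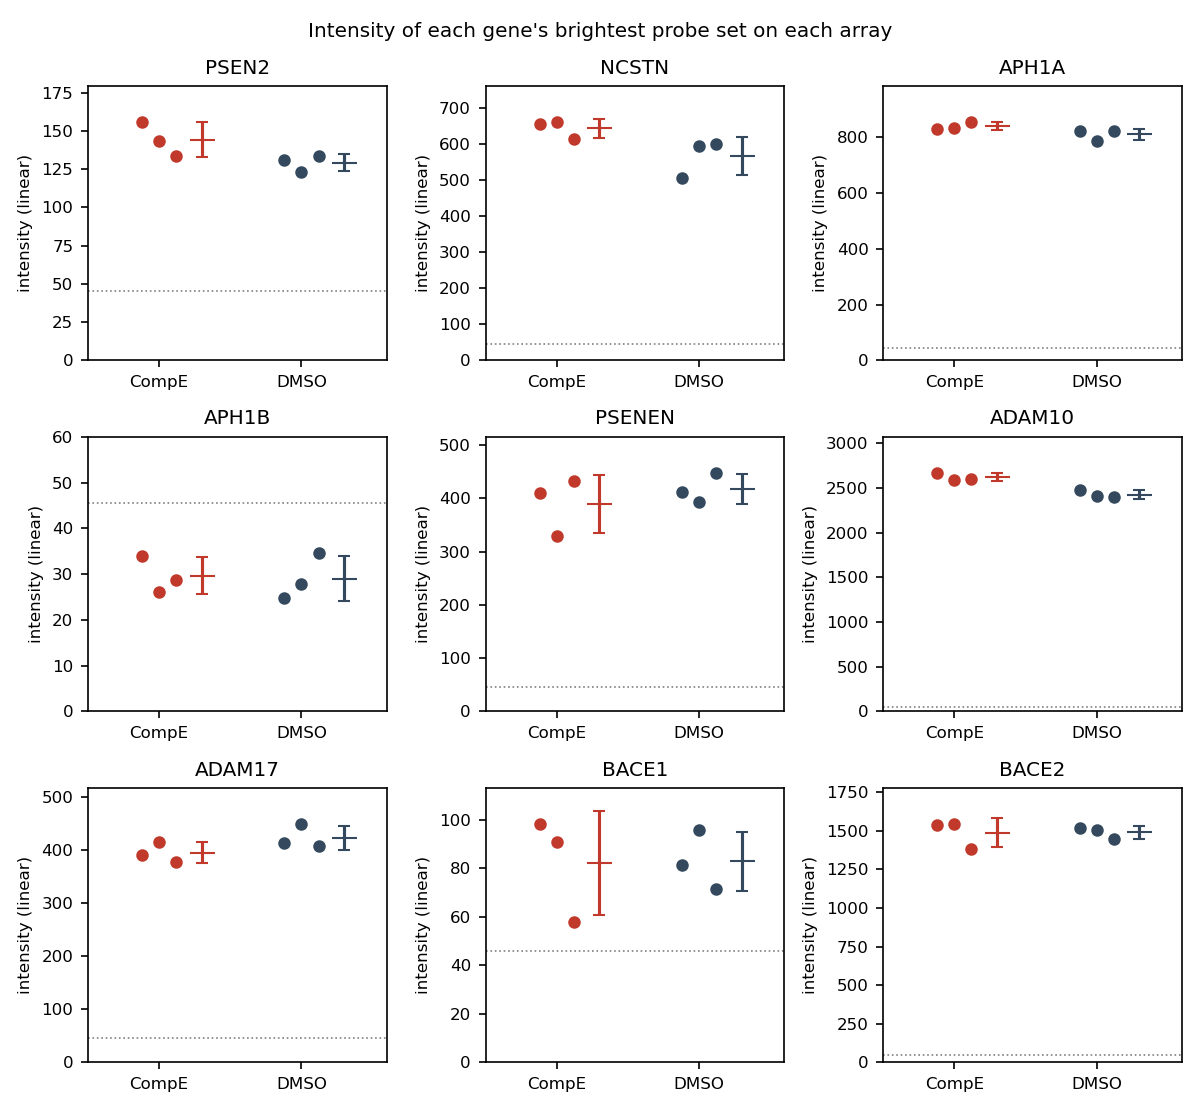
Intensity (linear scale, from 0) of the brightest probe set of each of the 9 genes on each array, CompE in red at the left and DMSO in dark blue at the right of each panel. Points are arrays, the cross-bars give the mean and SD of 3 arrays, and the dotted line is the background intensity of 45.7. NCSTN, APH1A and ADAM10 have no overlap between the groups, and APH1B lies below the background line on every array.

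The array carries 27 control probe sets for Bacillus mRNAs, absent from human cells, and these set a background level. The 95th percentile of their mean levels was an intensity of 45.7. Of the 24 probe sets, 17 lay above it in both groups and 7 in neither. All members except APH1B had at least 1 probe set above it. For 5 of the 24 (3 of BACE1 and 1 each of PSEN2 and APH1B) the mean level fell in the lowest 40% of all probe sets, and these were not tested.

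Among the subunits, PSEN2 encodes a presenilin, the catalytic component. Its brightest probe set read 156, 144 and 133.4 in CompE cells, against 131, 123 and 134 in DMSO cells. Of the CompE arrays 1 lay within the DMSO range, so the groups overlapped. The log2 difference was 0.16 (SE 0.07, limma adjusted p = 0.263), a ratio of 1.11 with a 95% interval of 0.981 to 1.27. A dimmer probe set averaged 88.9 ± 7.10 in CompE cells and 86.0 ± 4.94 in DMSO cells (SD, n = 3 each).

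NCSTN encodes nicastrin, the large glycoprotein subunit. Its intensities were 656, 662 and 613 in CompE cells, against 507, 594 and 599 in DMSO cells. All CompE arrays were higher than all DMSO arrays, and DMSO replicate 1 stood lowest. The log2 difference of 0.19 (SE 0.08) did not pass the test (limma adjusted p = 0.234), and the ratio of 1.14 had a 95% interval of 0.988 to 1.31. Without DMSO replicate 1 the log2 difference was 0.11. Its second probe set was below the background level in both groups.

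The APH1 scaffold is encoded by a pair of genes. APH1A read 829, 831 and 853 in CompE cells, against 819, 786 and 822 in DMSO cells. The groups did not overlap, but they lay close together, with a log2 difference of 0.05 (SE 0.05, limma adjusted p = 0.567). The 95% interval of the ratio, 0.956 to 1.12, was the narrowest among the subunits. The other APH1A probe sets differed by -0.12 and 0.08, and neither passed. APH1B had intensities of 34.1, 26.2 and 28.7 in CompE cells, against 24.8, 27.8 and 34.6 in DMSO cells. These values were below the Bacillus level in both groups, so no ratio is given for APH1B.

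PSENEN encodes PEN-2, the smallest subunit. It read 410.2, 329 and 432 in CompE cells, against 411, 394 and 448 in DMSO cells. CompE replicate 2 was the lowest of the 6 arrays and the other CompE arrays lay within the DMSO range. The log2 difference was -0.11 (SE 0.12, limma adjusted p = 0.635) and the 95% interval of the ratio was 0.760 to 1.14. Without CompE replicate 2 the difference was 0.01, so its sign rested on that array. For the 4 subunits above background, the 95% intervals together allow differences between a decrease of 24.0% and an increase of 31.1%.

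**Figure D2:**
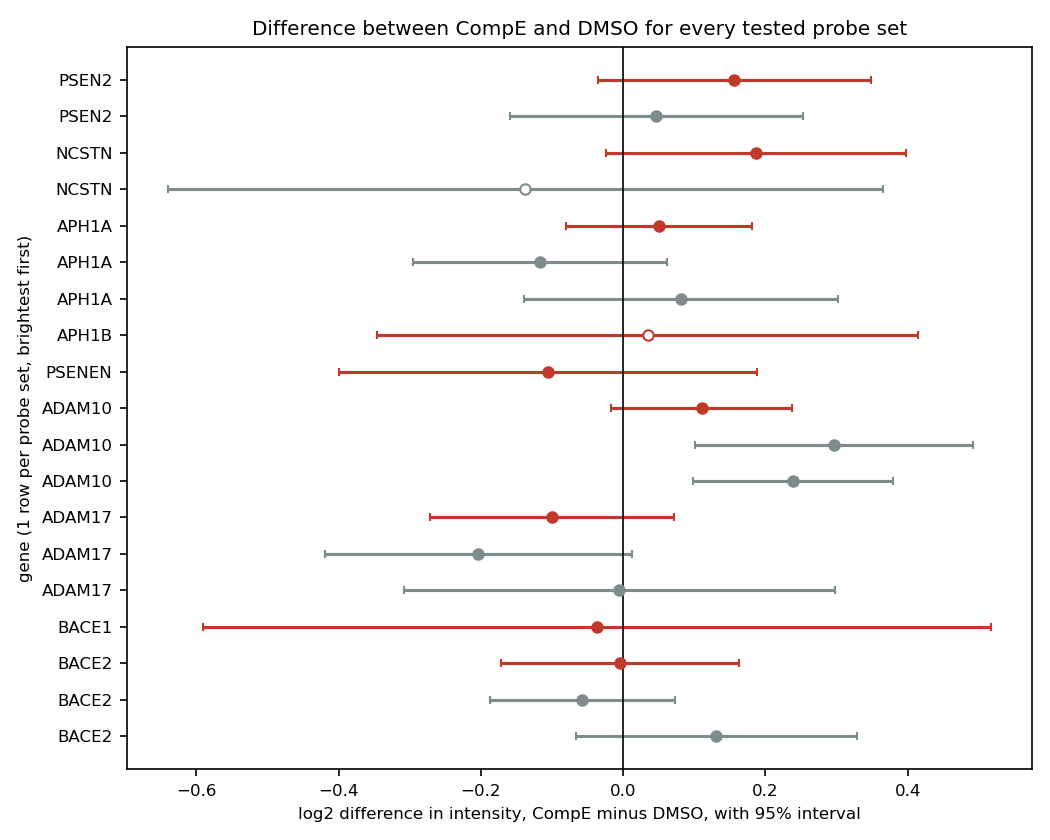
Log2 difference in intensity, CompE minus DMSO, with the 95% interval from limma's fit to all probe sets, for each of the 19 tested probe sets. Red marks the brightest probe set of a gene, grey the others, and open circles those below the background level in both groups. The intervals of 2 ADAM10 probe sets exclude 0, and neither passes the adjusted threshold.

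ADAM10, the sheddase of Notch receptors and cadherins, was the member closest to the threshold. Its brightest probe set read 2670.0, 2588 and 2601 in CompE cells, against 2481, 2405 and 2394 in DMSO cells. The 6 arrays separated by group with a small gap. The log2 difference was 0.11 (SE 0.05, limma adjusted p = 0.212) and the ratio was 1.08, with a 95% interval of 0.998 to 1.17.

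Both other ADAM10 probe sets lay on the same side. The second in brightness had 673, 704 and 673 in CompE cells, against 599, 505 and 569.6 in DMSO cells. Its log2 difference was 0.30 (SE 0.08) and its ratio 1.23, with a 95% interval of 1.07 to 1.41 (limma adjusted p = 0.103 over all 26962 probe sets). The dimmest had 537, 514 and 503 in CompE cells, against 426, 449.7 and 441 in DMSO cells. Its log2 difference was 0.24 (SE 0.06) and its ratio 1.18, with a 95% interval of 1.07 to 1.30 (limma adjusted p = 0.0815). This last one has the suffix x_at, which marks probe sets that may also bind unrelated transcripts, by Affymetrix's naming. Thus all 3 ADAM10 probe sets separated the groups and none passed the test over all probe sets. The call depended on the setting. Both dimmer probe sets passed where the lowest 60% of probe sets were left out (limma adjusted p = 0.0412 and 0.0314). They also passed in a limma fit with a robust trend (adjusted p = 0.00667 and 0.0163). More genes of any kind passed under those settings, 1751 of 10843 and 2254 of 14308, against 1021 of 14308 in the main fit. With arrays centred on the hybridisation controls, the brightest probe set differed by -0.03, while the second and the dimmest differed by 0.15 and 0.10. That centring moves the median of all genes to -0.12. A mean over all ADAM10 probe sets gave a log2 difference of 0.22 (limma adjusted p = 0.0659).

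**Figure D3:**
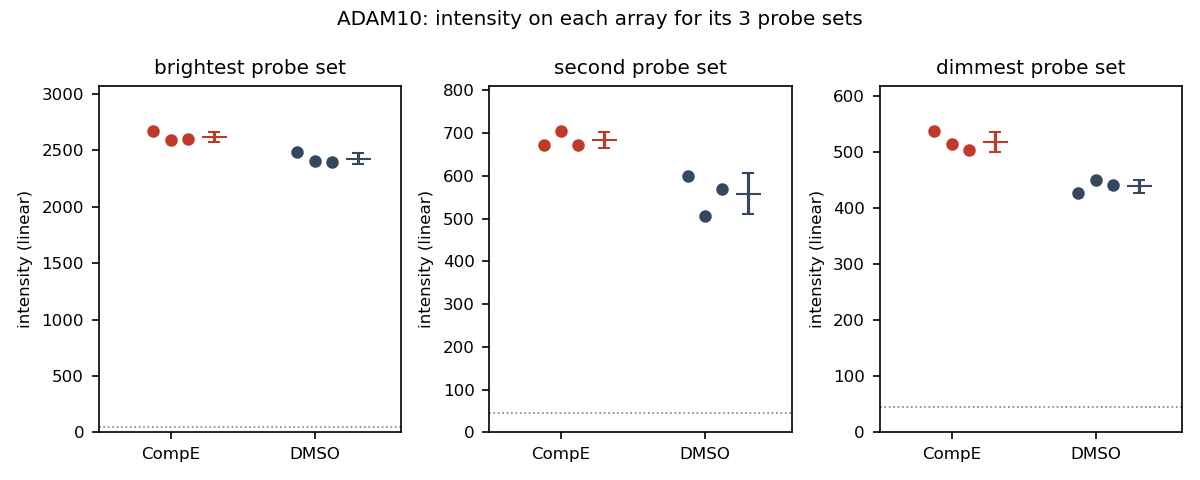
ADAM10 intensity (linear scale, from 0) on each array for its 3 probe sets in order of brightness, CompE in red at the left and DMSO in dark blue at the right of each panel. Points are arrays, cross-bars the mean and SD of 3 arrays, and the dotted line the background intensity of 45.7. In each panel every CompE array lies above every DMSO array.

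ADAM17, the sheddase of TNF and of epidermal growth factor receptor ligands, had the opposite sign. Its brightest probe set read 390.3, 416 and 377 in CompE cells, against 412, 449 and 407 in DMSO cells. CompE replicate 2 lay inside the DMSO range, and the log2 difference of -0.10 (SE 0.07) did not pass (limma adjusted p = 0.408). The second ADAM17 probe set, also of the x_at kind, had 346, 342 and 296 in CompE cells, against 382, 352 and 398 in DMSO cells. There the groups did not overlap, with a log2 difference of -0.20 (SE 0.09, limma adjusted p = 0.250). The dimmest ADAM17 probe set differed by -0.01 and the groups overlapped.

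The beta-secretases BACE1 and BACE2 are aspartic proteases that shed substrates close to the membrane. BACE1 read 98.2, 90.6 and 57.7 in CompE cells, against 81.4, 95.5 and 71.3 in DMSO cells. CompE replicate 3 was the lowest array and CompE replicate 1 the highest. The log2 difference was -0.04 (SE 0.23, limma adjusted p = 0.942), with a 95% interval of the ratio from 0.663 to 1.43, the widest among members above background. Without CompE replicate 3 the difference was 0.20 and without CompE replicate 1 it was -0.18, so neither its sign nor its size held when 1 array was left out. BACE2 read 1536, 1546 and 1380 in CompE cells, against 1521, 1504 and 1444 in DMSO cells. Its groups overlapped, and the interval of its ratio was narrower, 0.895 to 1.11 around 0.997 (limma adjusted p = 0.981). The other BACE2 probe sets differed by -0.06 (an x_at probe set, every CompE array below every DMSO array) and 0.13 (groups overlapping).

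Over all 19 tested probe sets, 0 rose and 0 fell, against 2.72% and 1.55% of all tested probe sets. At an unadjusted p under 0.05 there were 2 of the 19, both of ADAM10 and both higher in CompE cells. Over all 26962 tested probe sets, 3382 were under that p and higher in CompE cells, and 2533 were under it and lower. In 5 of the 19 every CompE array lay above every DMSO array and in 2 every CompE array lay below, and the shares over all probe sets were 16.6% and 13.1%. Signs were mixed, with 9 positive and 8 negative differences among the 17 above the background level. Among these, the probe sets of APH1A and of BACE2 differed in sign, while those of PSEN2, ADAM10 and ADAM17 did not. Intensities of different probe sets depend on their probes, so levels were not compared between genes.

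Genes related to the members, as partners, regulators, substrates or other proteases, were described from 10 lists of 74 genes, of which 68 could be tested. Of the 68, 3 rose (4.41%) and 2 fell (2.94%), beside 4.56% and 2.57% over all genes, and 63 did not pass. The median log2 difference of the 53 genes above the background level in both groups was 0.02. The list medians that follow are over such genes, a choice made after the values were seen. Before adjustment, p was under 0.05 for 7 of the 68 genes that were higher in CompE cells and 6 that were lower. Over all 14308 genes these numbers were 2145 and 1366.

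SPPL2B, a presenilin-like aspartic protease that cuts membrane proteins of opposite orientation, rose in CompE cells. Its intensities were 229, 239 and 214 in CompE cells, against 133.3, 156 and 140.2 in DMSO cells, with no overlap. The log2 difference was 0.67 (SE 0.08, limma adjusted p = 0.0106), a ratio of 1.59 with a 95% interval of 1.39 to 1.82. Its other probe sets differed by 0.33, which also passed, 0.25 and -0.05. It was 1 of 4 tested signal peptide peptidases, whose median difference was 0.02. Without CompE replicate 1 or DMSO replicate 3 the adjusted p was over the threshold, 0.0563 at most.

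TSPAN5, a tetraspanin that escorts ADAM10 out of the endoplasmic reticulum and shapes its choice of substrate, also rose. It read 543, 539 and 496 in CompE cells, against 413, 405 and 408 in DMSO cells, and the groups did not overlap. The log2 difference was 0.36 (SE 0.06, limma adjusted p = 0.0215) and the ratio 1.29. The probe sets of TSPAN5 disagreed, at 0.36, 0.21 and -0.23, and 1 passed. Of the 6 tetraspanins of this kind (TspanC8), 1 rose and 5 did not pass. The median of the 4 above background was 0.19, and TSPAN10 and TSPAN33 were below it in at least 1 group. TSPAN5 passed without CompE replicate 3, and without any other array it did not pass, with adjusted p up to 0.0863. The mean over its probe sets was 0.11.

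RHBDL3, a rhomboid protease of the membrane, rose by 0.38 on the log2 scale (SE 0.06, limma adjusted p = 0.0232). It had 69.4, 77.4 and 71.4 in CompE cells, against 54.5, 55.5 and 57.1 in DMSO cells. A second RHBDL3 probe set differed by 0.00115, but it was below the background level in both groups. Without any 1 of the 6 arrays the adjusted p of RHBDL3 was over the threshold, up to 0.0874. RHBDL3 was the 1 of 6 other intramembrane proteases that passed, and the median of the 5 above background was -0.04.

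The falls were in ADAM19 and EFNB2. ADAM19, a metalloprotease of the family of ADAM10, had 23.4, 28.3 and 20.5 in CompE cells, against 80.5, 61.2 and 61.0 in DMSO cells. The CompE values lay below the Bacillus level, so the gene was at least 1.47-fold lower in CompE cells (limma adjusted p = 0.00805). It was the only 1 of 9 other ADAM proteases that passed, and just 3 of the 9 were above background in both groups, with a median of -0.23. EFNB2, an ephrin ligand and gamma-secretase substrate, had 504, 463 and 433 in CompE cells, against 867, 758 and 806 in DMSO cells. It fell by 0.80 on the log2 scale (SE 0.08, limma adjusted p = 0.00643), and its second probe set fell by 1.25. Of 15 gamma-secretase substrates other than Notch, EFNB2 alone passed. The median was 0.06 over the 11 above background and -0.02 over all 15.

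In the remaining lists no gene passed the test. The 7 gamma-secretase binding and assembly proteins had a median of -0.05, and the smallest p was that of ARRB1, a beta-arrestin (log2 difference -0.19, limma adjusted p = 0.0834). Other ARRB1 probe sets disagreed, 3 of them being higher in CompE cells (0.17, 0.23 and 0.24), and the mean over its probe sets was 0.01. The 4 iRhom proteins and partners of ADAM17 had a median of 0.04, with RHBDF2 at -0.12 (limma adjusted p = 0.297). The 4 proprotein convertases, which remove the inhibitory prodomain of ADAM proteases, included 3 above background, with a median of -0.12. PCSK5 had the smallest p (limma adjusted p = 0.0908), but averaged 35.0 in CompE cells, below the Bacillus level, and 47.0 in DMSO cells, barely above it, so no difference is given. Of the 5 metalloprotease inhibitors, 4 were above background, with a median of 0.01 against 0.12 over all 5. TIMP2 was at 0.50 (limma adjusted p = 0.227), with means of 67.6 in CompE cells and 47.4 in DMSO cells, the latter barely above background. Its other probe sets were at -0.31 and -0.09, the former below background in CompE cells and the latter in both groups. The mean over them all was 0.03. The 8 sorting proteins of BACE1 had a median of 0.05, with VPS26A of the retromer at 0.09 (limma adjusted p = 0.294). ARRB1 passed with the lowest 60% of probe sets left out (adjusted p = 0.0422) and with arrays centred on the hybridisation controls (adjusted p = 0.015), and under that centring RHBDF2 and PCSK5 passed too (adjusted p = 0.0474 and 0.0476).

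**Figure D4:**
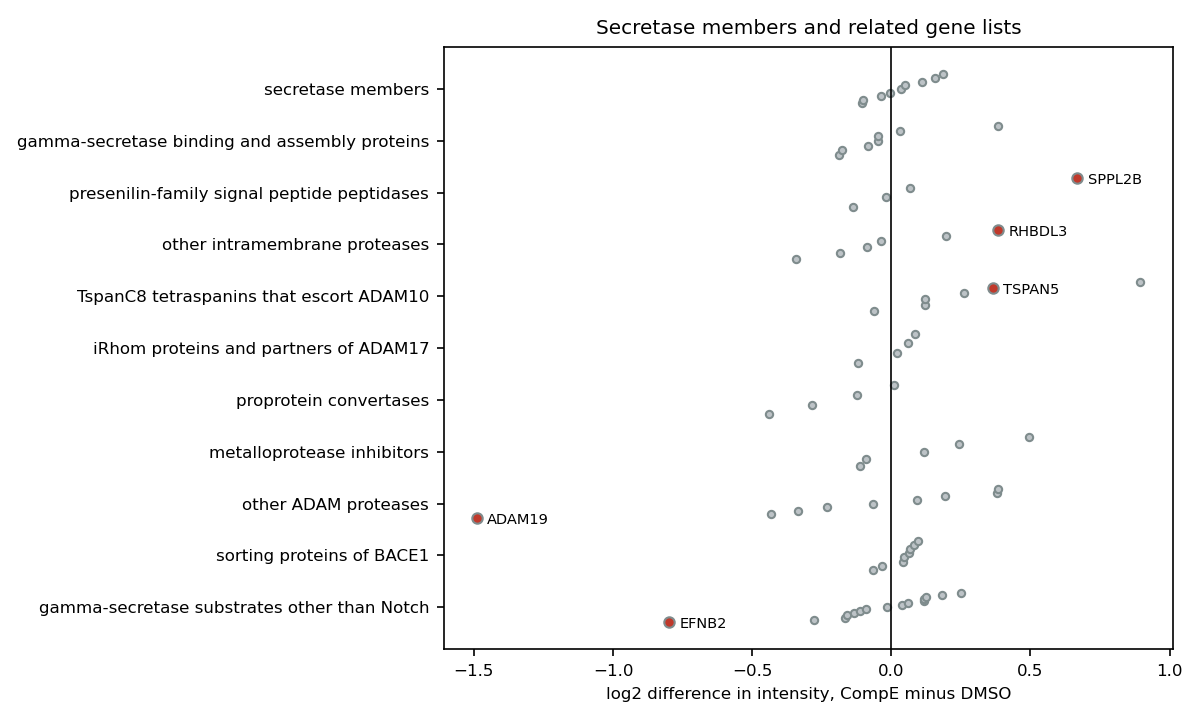
Log2 difference in intensity, CompE minus DMSO, for the 9 secretase genes in the top line and for the genes of the 10 related lists below it. Each point is a gene at its brightest probe set, and large red points with names passed an adjusted p of 0.05 in limma. No secretase gene passed, whereas SPPL2B, RHBDL3 and TSPAN5 rose and ADAM19 and EFNB2 fell.

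The promoters of the members were read for the core letters that RBPJ binds, because the gene that fell as a readout of the inhibitor, HES1, carries them beside its start. The core TGGGAA, on either strand, was searched in the 250 bases before each annotated start in RefSeq sequence (GRCh38.p14), where 7 of the 9 members matched. These 7 have 9 starts, 3 of them in BACE1. The core occurred before 2 of the 9 starts, that of PSENEN and the first of BACE1, and in 20.8% of all 35116 promoters. HES1 is shown as the responding gene with 2 cores, BACE1 (at its first start) and PSENEN as the members with cores, and ADAM10 as the member with the smallest p, in which the letters did not occur. Capitals mark the core, all 4 are written 5′ to 3′ on the strand of the gene, and the positions are HES1 at chr3:194135898-194136147 on the plus strand, BACE1 at chr11:117316257-117316506 on the minus strand, PSENEN at chr19:35745401-35745650 on the plus strand and ADAM10 at chr15:58749708-58749957 on the minus strand.
HES1: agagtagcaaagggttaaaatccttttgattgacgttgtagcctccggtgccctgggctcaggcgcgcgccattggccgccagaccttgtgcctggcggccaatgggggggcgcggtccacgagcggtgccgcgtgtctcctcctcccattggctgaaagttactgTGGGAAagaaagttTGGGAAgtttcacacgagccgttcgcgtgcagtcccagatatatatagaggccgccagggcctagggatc
BACE1: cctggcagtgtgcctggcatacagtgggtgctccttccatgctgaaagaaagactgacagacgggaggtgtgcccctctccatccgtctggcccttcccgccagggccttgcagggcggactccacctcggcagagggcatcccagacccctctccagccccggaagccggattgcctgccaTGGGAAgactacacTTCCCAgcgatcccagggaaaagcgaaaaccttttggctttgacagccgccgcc
PSENEN: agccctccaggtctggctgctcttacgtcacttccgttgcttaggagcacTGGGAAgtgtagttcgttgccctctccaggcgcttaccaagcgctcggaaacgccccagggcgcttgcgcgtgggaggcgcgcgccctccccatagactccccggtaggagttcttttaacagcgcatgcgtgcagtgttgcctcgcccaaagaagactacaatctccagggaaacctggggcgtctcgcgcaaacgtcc
ADAM10: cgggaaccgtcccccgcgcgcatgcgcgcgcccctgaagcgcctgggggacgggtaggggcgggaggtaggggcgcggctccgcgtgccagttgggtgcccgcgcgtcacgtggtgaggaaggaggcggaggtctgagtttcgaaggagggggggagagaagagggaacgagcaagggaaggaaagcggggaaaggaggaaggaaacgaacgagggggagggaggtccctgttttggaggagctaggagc

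In HES1 the first base of each core lay 84 and 70 bases before the start, and in BACE1 68 and 54 bases before it, a spacing of 14 bases in both. As exact TGGGAA letters, the pair in HES1 has the same orientation and the pair in BACE1 opposite ones. Only those exact letters were searched, so variant RBPJ sites, including any in HES1, were not counted. The spacing and orientation therefore describe the letters found and not how RBPJ sites are arranged. PSENEN had 1 core, 200 bases before its start. OLFM4 had 1 core, 249 bases before its start. HES1 and OLFM4 fell, while PSENEN and BACE1 did not pass the test. The N-box CACNAG, which the HES family binds, occurred before 1 of the 9 starts, another one of BACE1, and in 32.0% of all promoters. The GC box GGGCGG occurred before 6 of the 9 and in 42.6%. Both motifs were searched on either strand. The share of G and C in the 9 windows ran from 53.2% to 75.6%, and its median over all promoters was 58.0%. Its part in the GC box matches was not tested. Matches of the N-box can overlap those of the other motifs at its ends. A match describes letters and not binding.

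The arrays of a group correlated at 0.987 to 0.989 over all probe sets, and arrays of different groups at 0.981 to 0.985. All 8 colon epithelium markers were above the Bacillus level in both groups, with summed intensities of 28542 to 29066 in CompE cells and 27832 to 29358 in DMSO cells. Of the markers of other cells, 3 of 5 for fibroblasts, 1 of 4 for leukocytes (LYZ, which Paneth cells also make), 1 of 4 for endothelium and 2 of 4 for neurons were above that level, and PTPRC and CDH5 were far below it. The summed markers of fibroblasts (300.3 to 323 in CompE cells, 254 to 376 in DMSO cells) and endothelium (211 to 247, against 225 to 285) overlapped between the groups. Those of leukocytes did not (1179 to 1436, against 1561 to 1835), nor did those of neurons (176 to 188, against 130.0 to 171). The leukocyte sum was mostly LYZ (1124 to 1363 in CompE cells, 1468 to 1738 in DMSO cells). PTPRC, CD3E and CSF1R each overlapped between the groups. Among single markers CDX2, a transcription factor of intestinal epithelium, rose (727 ± 15.9 in CompE cells, 539 ± 14.1 in DMSO cells, SD over 3 arrays, limma adjusted p = 0.00873). The groups also did not overlap for VIL1 (2240.2 against 2147.7 in the mean), KRT8 (5018 against 5337), LYZ (1271 against 1580.4), SYT1 (81.4 against 58.8), SNAP25 (56.4 against 48.2) and KDR (25.9 against 37.9), none of which passed. The ratio of 3′ to 5′ signal of ACTB, a measure of RNA integrity, was 1.51 ± 0.0193 in CompE arrays and 1.44 ± 0.0201 in DMSO arrays (SD of 3 arrays a group); an exact two-sided permutation test gave p = 0.1, which is the lowest value 3 against 3 can reach. The same ratio of GAPDH ran the other way, 0.946 ± 0.0264 in CompE arrays and 0.968 ± 0.0106 in DMSO arrays, with overlap (exact permutation p = 0.3). The hybridisation controls were higher in CompE arrays too, at a mean log2 of 11.76 against 11.62. With the arrays centred on these controls, ADAM17 differed by -0.24, ADAM10 by -0.03 and the median member by -0.11. The part of the ACTB ratio and of the markers in the members' values was not tested.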

How the data were processed

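RNA from 6 LS174T cultures was measured, 3 with CompE and 3 with DMSO, grouped by the sample titles. Per the labels' protocols, the authors amplified and biotin-labelled RNA from the 3′ end, and per the series design text they removed intensity differences between arrays with dChip. Each deposited value is a linear intensity of a probe set. Neither the dChip version nor its use of mismatch probes is stated in the sources at hand.

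Intensities under 1 were set to 1 and log2 was taken. The 62 control probe sets and the lowest 40% by mean log2 (an intensity under 24.4) were left out, as were probe sets with several genes or none in the platform annotation, which gave 1 gene to 41097 probe sets, several to 1800 and none to 11721. The brightest probe set stood for its gene, and a second fit kept every probe set. CompE was compared with DMSO by limma 3.58.1 in R 4.3.3 (lmFit, eBayes, two-sided, no covariate), with Benjamini-Hochberg adjustment over all features and a threshold of 0.05. The same steps were tested on simulated data. The labels call the cultures biological replicates, and their number limits the precision.

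Genes were named by rule: every member and its probe sets, from each list the genes that passed (at most 4) or else the one with the smallest p, HES1 and OLFM4, and the 3 genes most like the member with the smallest p. The members and lists were chosen with earlier results of these data known. The 15 alternatives changed the filter, normalization, floor, probe set summary, variance model, replicate block and arrays left out.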

Additional observations from a re-analysis of the deposited data

How the results depend on the processing

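None of the members tested passed under any of the 15 alternatives (all 9 were tested, but 8, without APH1B, where the lowest 60% was left out), and the lowest adjusted p was 0.0514, for ADAM17 with arrays centred on the hybridisation controls, where its log2 difference was -0.24. Before adjustment, p was under 0.05 for 2 members with the lowest 60% left out, 2 with that centring and 2 with the robust trend. It was so for 1 member with a mean over probe sets and for 1 without CompE replicate 3. Of the members' probe sets, 2 passed with the lowest 60% left out and 2 with the robust trend, both of ADAM10, and 0 elsewhere. The median difference of the members was 0.03 over all 9, 0.02 over the 8 above background, an alternative chosen after seeing the data, and -0.11 with centring on the hybridisation controls. Over all genes, 1021 of 14308 passed. That number was 363 of 19775 with no filter and 1751 of 10843 with the lowest 60% left out. It was 1892 with centring on the hybridisation controls, 2254 with the robust trend, and 252 to 519 with 1 array left out. With that centring 18% of the genes that passed rose, against 64% as reported and 57.2% to 71.9% under the other alternatives. Deviations of same-numbered CompE and DMSO arrays correlated at 0.0246, -0.104 and -0.0215, and those of differently numbered arrays at -0.103 to 0.122. Such values cannot tell whether same-numbered cultures were handled together, and the labels name no pairing. With a replicate block 102 genes and 0 members passed, and SPPL2B, TSPAN5, RHBDL3 and ADAM19 did not. SPPL2B, TSPAN5 and RHBDL3 also did not pass as means over probe sets, nor TSPAN5 and RHBDL3 with no filter, nor RHBDL3 with the robust trend. EFNB2, HES1 and OLFM4 passed under all 15. Dim probe sets limit what could be seen for APH1B and BACE1.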

Other observations

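Across the 6 arrays, the 3 genes whose centred log2 values lay closest to those of ADAM10 were PTBP3, FBXO3 and HMMR, at root mean square differences of 0.00901, 0.0135 and 0.0137. PTBP3, an RNA-binding splicing regulator, read 2354, 2312 and 2289 in CompE cells, against 2188, 2110 and 2099.9 in DMSO cells. None of the 3 passed the test (limma adjusted p = 0.181, 0.191 and 0.295). The likeness includes the shared difference between the groups and carries no test.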
